A study of Homo sapiens with 12 samples.

Results

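LIG1, DNA ligase I, was represented by 2 of the 1141 sgRNAs of a library in which every sgRNA was paired with every other in both orders, so that 4560 of its 1301881 constructs carried a LIG1 sgRNA in at least 1 of the 2 positions. These constructs were picked by name alone, but LIG1 itself was chosen with its single-gene growth and niraparib values known, and those values are given as a description. The library targeted 543 genes with 2 sgRNAs apiece, held 55 non-targeting sgRNAs as controls, and was read by sequencing the sgRNA pairs in genomic DNA of K562 cells, an established chronic myeloid leukaemia line, made to express the CRISPRi machinery, a catalytically dead Cas9 that represses transcription from the promoter an sgRNA leads it to. Knockdown was not measured, and genomic DNA gives no expression with which to check LIG1 repression or the cell line.

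The niraparib arm of the 2023 screen received 2 µM niraparib, a PARP1 and PARP2 inhibitor, was raised to 3 µM from day 2, was taken out of drug 4 days after dosing, grew for 6 drug-free days and was harvested 19 days after transduction. The niraparib arm of the 2022 screen received 2 µM for 3 days and was harvested on day 18. The reference arms were given the vehicle DMSO in the same screens and harvested with the treated cells, and the T0 samples were taken on day 9, before dosing, after all cells had been transduced with the library and selected with puromycin. Each screen had 2 replicate cultures, each sampled at T0 and then, by the labels' protocols, divided into a niraparib and a reference arm, which gave 12 libraries in 6 groups of 2 and 4 independent cultures.

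DNA ligase I joins Okazaki fragments, the short stretches in which the lagging strand is copied, and seals the nick left by long-patch base excision repair. A second ligase, LIG3, works with the scaffold XRCC1 in single-strand break repair and can join Okazaki fragments when LIG1 is short. Unligated nicks bind PARP1, which makes poly(ADP-ribose) from NAD and brings XRCC1 to the nick, while PARP inhibitors hold PARP1 on the DNA.

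RefSeq places LIG1 on the minus strand of GRCh38.p14 at chr19:48115445-48170344. The window from 250 bases before to 50 bases after its start is shown because CRISPRi acts at the promoter. It runs 5′ to 3′ on the minus strand of chr19:48170295-48170594, and the capitals mark matches, on either strand, to TTTCCCGC, the core of E2F sites, or to CCCGCCC, which forms the core of Sp1 sites.
LIG1 promoter: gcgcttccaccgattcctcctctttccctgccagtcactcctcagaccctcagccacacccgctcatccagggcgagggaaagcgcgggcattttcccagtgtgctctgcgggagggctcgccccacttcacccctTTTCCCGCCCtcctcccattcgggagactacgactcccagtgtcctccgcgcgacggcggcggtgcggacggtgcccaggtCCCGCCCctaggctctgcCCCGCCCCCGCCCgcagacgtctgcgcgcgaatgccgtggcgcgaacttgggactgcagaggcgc
TTTCCCGC occurred 1 time, starting at -114 from the gene start, and was present in 1.63% of 35116 RefSeq promoter windows of this length. CCCGCCC occurred 4 times, the first overlapping TTTCCCGC, and was present in 33.1% of the windows. The nearest other annotated gene start lay 33817 bases away, so no other gene of the library shares this promoter. Both LIG1 sgRNAs are named for the plus strand, with numbers that differ by 10, and neither was placed on this sequence because their genome build and their sequences are not given in the sources used here.

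The libraries held between 182.6 and 460.7 megareads, and LIG1 constructs took between 0.206% and 0.347% of them, with medians of 76 to 274 reads per construct. In the reference library of 2022 replicate 1, some single knockdowns stood apart from the other 3 cultures: 15 of 543 genes had a growth value lower by more than 0.4 (log2) than the median of the others and 15 had one higher, against 0 to 7 genes in either direction in the other cultures. BRCA2, PARP1, HUS1 and XRCC1, all partners of LIG1 below, were among them, lower by 1.04, 0.79, 0.60 and 0.46, whereas LIG1 itself differed by -0.04. The scores of LIG1 with these 4 genes are given with and without that library. Other partners alone also varied between cultures in their reference change, with SDs of 0.48 for BARD1, 0.46 for RAD54L and 0.26 for PALB2. For PARP1, HUS1 and XRCC1 the SDs were 0.40, 0.32 and 0.26. Which culture stood apart for BARD1, RAD54L and PALB2 is not given here, nor are scores of BARD1 and PALB2 without that library.

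Cells with LIG1 repressed grew more slowly without drug and were depleted further under niraparib. The LIG1 sgRNAs paired with non-targeting sgRNAs stood, relative to constructs with only non-targeting sgRNAs, at 35.0% and 35.4% in the niraparib libraries of 2023 and at 40.04% and 40.5% in those of 2022. In the reference libraries they stood at 59.3% and 58.8% in 2023 and at 57.4% and 59.4% in 2022, and at T0 at 89.6%, 90.2%, 89.8% and 90.2%. The 3 arms did not overlap, and the level was already below 100% at T0, on day 9, in every library. Each of these levels rests on 220 constructs and on 24462 to 94627 summed reads. The reads carry no molecular identifiers, so the counts include PCR copies.

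**Figure D1:**
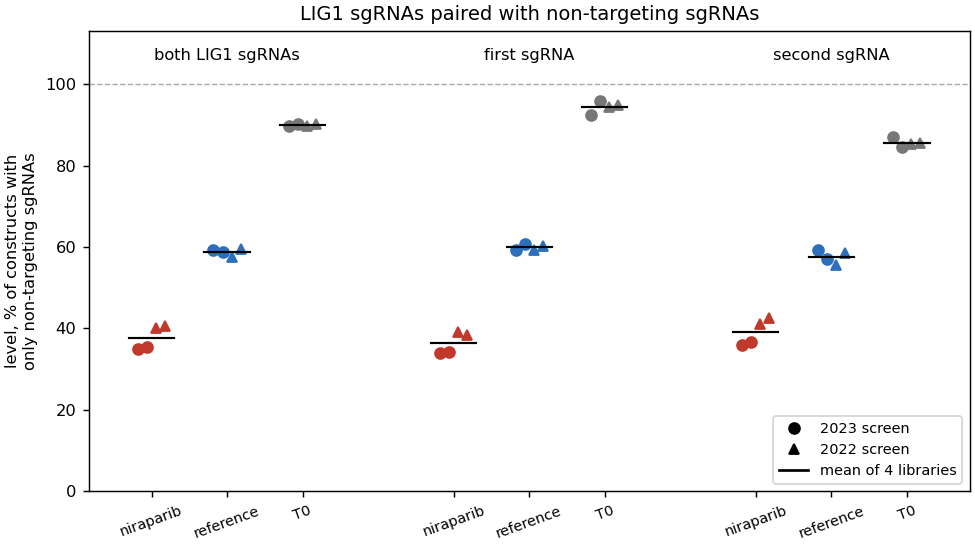
Level of LIG1 sgRNAs paired with non-targeting sgRNAs, as a percentage of constructs with only non-targeting sgRNAs (dashed line at 100%), in each library of the niraparib, reference and T0 arms; circles are the 2023 screen, triangles the 2022 screen and bars the mean of 4 libraries. Niraparib libraries lie between 34.0% and 42.7% across both sgRNAs, below every reference and T0 library.

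The log2 growth of LIG1 knockdown, reference endpoint over T0, was -0.61 ± 0.02 (SD, n = 4 cultures; edgeR SE 0.012), which left 65.3% of the starting share. It ranked 227 of 543 genes from the lowest, near the median of -0.46, and its neighbours in rank were PPP2CA (-0.63), SEPSECS (-0.62), COPS2 (-0.61) and DTL (-0.60), whose differences from LIG1 lay within its SD. The culture values were -0.60 and -0.62 in 2023 and -0.64 and -0.60 in 2022. By edgeR, 81% of the genes were called lower for growth and 4.24% higher, so slow growth without drug did not set LIG1 apart.

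The niraparib response, niraparib endpoint over reference endpoint, was -0.64 ± 0.12 and ranked 41 of 543, with -0.76 and -0.73 in 2023 and -0.52 and -0.55 in 2022. The median gene responded by 0.01 and the non-targeting sgRNAs spanned -0.086 to 0.050. LIG1 lay between MND1 (-0.67) and SWI5 (-0.66), cofactors of strand exchange in recombination, on its lower side and RBM42 (-0.63) and LRRC45 (-0.60) on its upper side, all within its SD. Over the whole drug treatment, niraparib endpoint over T0, LIG1 fell by 1.26 ± 0.11 (log2), to 41.8% of its starting share, and ranked 98, beside NUDC (-1.27), POLD2 (-1.27), POLR3B (-1.26) and DNA2 (-1.26). For the response 35.7% of the genes were called lower and 44.2% higher, and for the total change 82.1% and 5.52%.

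The response was larger in the 2023 screen, which had the longer and stronger exposure, by -0.21 (2023 minus 2022, log2; SE 0.024), and growth differed by 0.02 (SE 0.024). Both 2023 values of the response lay below both 2022 values. These differences split the values LIG1 was chosen on and are given with no test. Exposure, harvest day and handling differed together between the screens and cannot be told apart.

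Both LIG1 sgRNAs gave the phenotype. The first was lower than the second by -0.083 ± 0.020 in growth, -0.16 ± 0.055 in response and -0.24 ± 0.062 in total (log2; SD, n = 4 cultures), with the same sign in 4 of 4 cultures for each. These differences split the values LIG1 was chosen on and are given as a description. An exact permutation test of 4 cultures cannot give a two-sided p under 0.125, so it could not show a difference. Constructs that combined the 2 LIG1 sgRNAs grew at -0.71 ± 0.23, responded at -0.75 ± 0.25 and changed by -1.46 ± 0.095 in total, which for growth and response lies within 1 SD of the value with a single LIG1 sgRNA. The 2 sgRNAs also gave like partner profiles: across 542 partners their interaction scores correlated at r = 0.577 under niraparib and 0.689 in the reference arm, a description over points that share libraries and partner sgRNAs. Between cultures the LIG1 profile correlated at 0.411 to 0.530 under niraparib (mean 0.466, median gene 0.297, 107 genes above LIG1) and at 0.443 to 0.609 in the reference arm (mean 0.542, median gene 0.262, 22 genes above LIG1).

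Some LIG1 pairs were already scarce at T0, before any drug. The T0 reads of each gene pair were set against the product of its sgRNAs' own T0 levels, a description chosen after the data were seen. The pair with LIG3 was at 34.1% of that product, a log2 deviation of -1.55 ± 0.11 (SD, n = 4 libraries), the third lowest of all 147153 gene pairs. The pairs with NAMPT, the rate-limiting enzyme of NAD salvage, and with XRCC1 followed at 39.5% (-1.34 ± 0.15) and 43.7% (-1.20 ± 0.13), ranks 8 and 11 of all pairs. For each of the 3, all 4 combinations of sgRNAs were below 0 and all 4 T0 libraries were at or below -1.04. Over all gene pairs the median deviation was -0.01 with an SD of 0.13, and LIG1 pairs as a whole had a median of 0.00.

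Next among the LIG1 pairs at T0 were those with LRRC45 (-0.65), BRCA2 (-0.57), GAPDH (-0.55), PARP1 (-0.45), NMNAT1 (-0.45), RAD9A (-0.45), ATR (-0.44) and RAD51C (-0.42), each with 4 of 4 sgRNA combinations below 0 except LRRC45 with 3. LIG1 with RIF1 (0.08) and with POLB (0.06) were not scarce. The plasmid pool was not analysed here, so a low share in the cloned library and cell loss between transduction and day 9 cannot be told apart. The interaction scores below start from T0 and do not include what happened before it.

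The interaction score of a gene pair is the log2 change from T0 minus the change expected from its single knockdowns, with the expectation read from a curve fitted for each sgRNA over all its partners, so that a score below 0 means a pair more depleted than expected. The niraparib and reference scores of a culture share its T0 library. LIG1 was scored with all 542 partners, of which 534 had all 4 sgRNA combinations. Without drug, 28 of 542 partners (5.17%) had a lower score with LIG1 at an adjusted p under 0.05 by limma, against 1.05% of all 147044 gene pairs, and 0 had a higher score, against 0.809%. Of these 28, 27 had the same sign in all 4 cultures, the exception being XRCC6. By limma, 120 lower and 15 higher scores had an unadjusted p under 0.05. A median gene had 3 lower calls, and 15 genes had more than LIG1.

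The lowest of these partners were the recombination gene BRCA2, then PARP1, the NAD synthesis genes NMNAT1 and NAMPT, the nick repair genes XRCC1 and LIG3, the checkpoint clamp subunit HUS1 and BARD1, the partner of BRCA1. The 28 calls in the reference arm kept their direction without any of the 4 cultures in turn, but the adjusted p did not: leaving out 2022 replicate 1 or 2022 replicate 2 left 0 LIG1 calls and 3 or 5 calls in the table of all pairs, from 2738. The scores are therefore given with every culture. No LIG1 score differed between the screens past the threshold (limma, lowest adjusted p = 0.539 in the reference arm and 0.530 under niraparib), and 0 of all gene pairs did, with 4 cultures to estimate it.

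**Figure D2:**
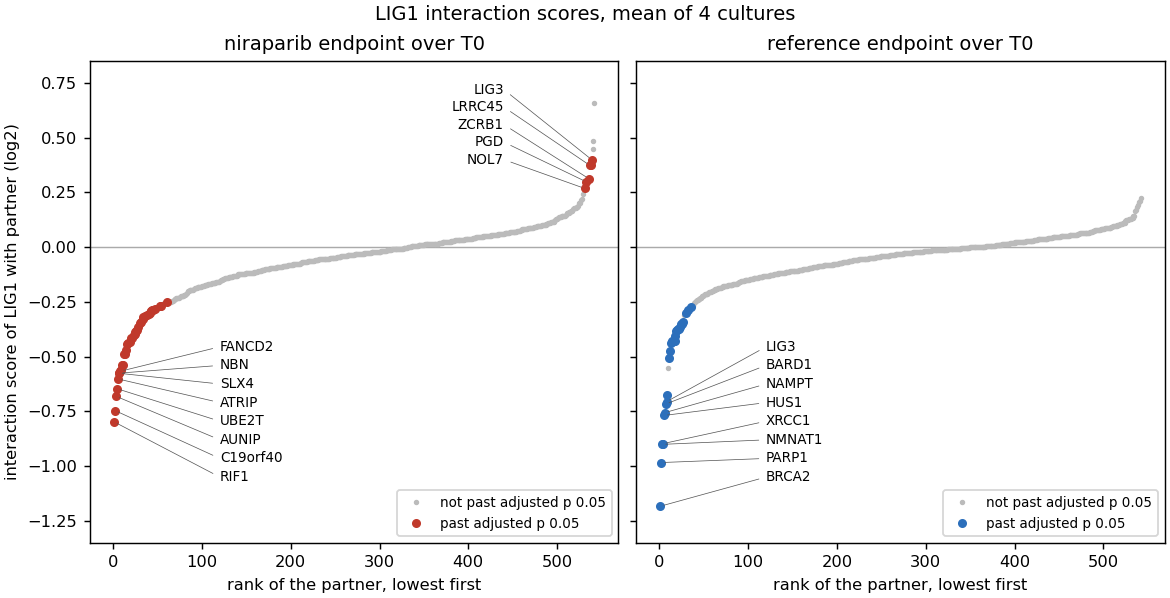
Interaction scores of LIG1 with its 542 partners (log2, mean of 4 cultures), ranked from lowest to highest, for the niraparib endpoint (left) and the reference endpoint (right), each over T0; coloured points passed adjusted p 0.05 over all gene pairs and grey points did not. The reference arm has 28 called partners, all below 0, and the niraparib arm has 41 below 0 and 6 above.

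Among the genes of nick ligation and single-strand break repair, LIG3 reversed its score with LIG1 between the arms. Its score under niraparib was 0.40, 0.47, 0.40 and 0.33 (2023 replicates 1 and 2, then 2022 replicates 1 and 2), and in the reference arm -1.14, -0.68, -0.28 and -0.73. All niraparib values lay above 0 and all reference values below it. The means were 0.40 ± 0.06 (limma adjusted p = 0.0186) and -0.71 ± 0.35 (adjusted p = 0.0443; SD, n = 4 each). The differential score, niraparib minus reference within a culture, was 1.11 ± 0.36 (adjusted p = 0.0469). Leaving out 2022 replicate 1 gave 0.38, -0.82 and 1.201 (adjusted p = 0.0985, 0.135 and 0.209). The LIG3 sgRNA combinations ran from -0.0006 to 0.83 under niraparib and from -0.86 to -0.39 in the reference arm. In levels, cells with both genes repressed stood at 12.1% ± 1.2 of non-targeting constructs in the niraparib libraries, 13.5% ± 1.7 in the reference libraries and 36.7% ± 3.0 at T0, so the pair ended at much the same share with and without drug, whereas LIG3 with a non-targeting sgRNA stood at 49.2% to 53.7%, 92.6% to 102.8% and 117.3% to 117.7%.

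XRCC1, the scaffold of LIG3 at single-strand breaks, gave the same arrangement. Its scores with LIG1 were 0.54, 0.23, 0.24 and 0.79 under niraparib and -0.81, -1.20, -0.94 and -0.64 in the reference arm, with no overlap. The reference mean of -0.90 ± 0.24 passed (limma adjusted p = 0.0211) and the niraparib mean of 0.45 ± 0.27 did not (0.0749), while the differential score of 1.35 ± 0.12 passed (0.0137). With 2022 replicate 1 left out, the niraparib, reference and differential scores were 0.59, -0.82 and 1.41 (0.0743, 0.127 and 0.120). POLB, the short-patch repair polymerase, had scores of -0.25 ± 0.19 under niraparib and -0.06 ± 0.06 in the reference arm (adjusted p = 0.0691 and 0.528), although POLB knockdown alone was strongly niraparib sensitive, with a response of -1.91. Of the 4 members of this list in the library, 0 were lower and 1 was higher under niraparib (median 0.08, against -0.03 for all LIG1 partners), and 2 were lower in the reference arm (median -0.47, against -0.03). Among all LIG1 partners, 7.56% were lower and 1.11% higher under niraparib, and 5.17% were lower in the reference arm.

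PARP1 and the enzymes that supply its NAD were the next group. The LIG1 and PARP1 pair stood at 54.1%, 53.1%, 48.7% and 41.9% in the niraparib libraries, 15.9%, 16.8%, 16.99% and 17.5% in the reference libraries and 73.4% to 80.3% at T0. The pair was thus the other way round from LIG1 alone, more abundant with drug than without it, and the arms did not overlap. PARP1 with a non-targeting sgRNA stood at 326%, 330%, 272% and 265% under niraparib and at 77.2%, 78.0%, 44.6% and 76.6% in the reference arm. The score was -0.28 ± 0.19 under niraparib (limma adjusted p = 0.0449; -0.33 without 2022 replicate 1, 0.124) and -0.98 ± 0.40 in the reference arm (0.0312). Under niraparib the sgRNA combinations were at -0.59 and -0.42 with the first LIG1 sgRNA and at 0.05 and -0.17 with the second. The reference culture values were -1.27, -1.16, -0.40 and -1.11. The third is the library in which PARP1 alone stood apart, and without it the mean was -1.16 (adjusted p = 0.0918). The differential score of 0.70 ± 0.49 did not pass (0.0940), and without 2022 replicate 1 it was 0.84 (0.209).

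NMNAT1, which makes NAD in the nucleus, had reference scores with LIG1 of -0.98, -1.10, -0.72 and -0.80 (mean -0.90 ± 0.17; limma adjusted p = 0.00999) and niraparib scores of 0.29, -0.12, 0.03 and 0.04 (mean 0.06 ± 0.17; 0.72). NAMPT had -0.74, -1.09, -0.52 and -0.67 in the reference arm (mean -0.76 ± 0.24; 0.0209) and 1.09, 0.27, 0.70 and 0.58 under niraparib (mean 0.66 ± 0.34; 0.0546). For both genes the arms did not overlap, and the differential scores passed, at 0.96 ± 0.23 for NMNAT1 (0.0308) and 1.41 ± 0.28 for NAMPT (0.0236). Without 2022 replicate 1 the reference scores were -0.92 for NMNAT1 and -0.79 for NAMPT (0.102 and 0.123), and the differential scores 0.98 and 1.42 (0.216 and 0.195). Among the other genes of this group, PARP2 had -0.10 and -0.09, PARG, which removes poly(ADP-ribose), 0.03 and -0.02, and C4orf27 (HPF1), the cofactor that directs PARP1 to serines, -0.23 and -0.09 under niraparib and in the reference arm, none past the threshold (limma adjusted p from 0.0812 to 0.902). Of 8 measured members, 1 was lower under niraparib (median -0.12) and 3 were lower in the reference arm (median -0.18). For all LIG1 partners the shares were 7.56% and 5.17%, with a median of -0.03 in each arm.

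Under niraparib, 41 of 542 partners (7.56%) had a lower score, against 2.32% of all pairs, and 6 (1.11%) had a higher one, against 2.07%. For 499 of the 542 LIG1 pairs under niraparib the fitted curves expected less depletion than the sum of the single changes, though not with PARP1 (curve -0.36, sum 0.12). For LIG1 with RIF1 the sum was -2.52, the curve gave -2.01 and the pair was at -2.81. With the plain sum as expectation, an alternative chosen after the data were seen, the median of all pairs moved to 0.13 under niraparib and 0.10 in the reference arm, and that of LIG1 pairs to 0.28 and 0.10. All 28 reference calls kept their sign under that expectation, and 23 were called again. Of the 47 niraparib calls, 24 kept their sign, and those that turned above 0 included BARD1, RAD54L, RBBP8, HUS1 and RFC1. The lower scores under niraparib are therefore relative to other pairs of like single phenotypes. Without 2022 replicate 1 or without 2022 replicate 2, 1 or 3 LIG1 partners passed under niraparib, when 536 or 570 of all pairs did, from 6456, and all 47 kept their sign.

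RIF1, which protects DNA ends from resection downstream of 53BP1, had the lowest niraparib score with LIG1, -0.75, -0.88, -0.66 and -0.90 against -0.23, -0.25, -0.23 and -0.26 in the reference arm. The arms did not overlap, and the means were -0.80 ± 0.11 (limma adjusted p = 0.00878) and -0.24 ± 0.02 (0.0579). The differential score of -0.56 ± 0.10 did not pass (0.063). Without 2022 replicate 1 the niraparib mean was -0.86 (0.0333). With the plain sum the RIF1 score stayed below 0, at -0.30 (0.0132). TP53BP1 itself had 0.16 ± 0.04 under niraparib and -0.05 ± 0.07 in the reference arm (limma adjusted p = 0.108 and 0.604). Of the 10 measured genes of the 53BP1 and shieldin list, RIF1 was called lower under niraparib and 0 were called in the reference arm. Among all LIG1 partners, 7.56% and 5.17% were called lower, so 1 call in 10 does not set this list apart. The list medians were 0.02 and 0.00, against -0.03 for all LIG1 partners in each arm.

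The Fanconi anemia genes, which repair crosslinks and collapsed forks, included 9 lower members of 16 under niraparib, with 16 of 16 below 0 and a median of -0.30, and 3 lower members in the reference arm, with 15 of 16 below 0 and a median of -0.16. Of all LIG1 partners, 334 of 542 lay below 0 under niraparib and 353 of 542 in the reference arm, and with the plain sum 92 and 163 did. The shares of all LIG1 partners called lower were 7.56% under niraparib and 5.17% in the reference arm. C19orf40 (FAAP24), which anchors the complex to DNA with FANCM, had -0.75 ± 0.36 under niraparib and -0.38 ± 0.14 in the reference arm (limma adjusted p = 0.0349 and 0.0499). The ubiquitin-conjugating enzyme UBE2T had -0.65 ± 0.15 and -0.23 ± 0.07 (0.0154 and 0.0812), the nuclease scaffold SLX4 -0.58 ± 0.22 and -0.14 ± 0.11 (0.0331 and 0.244), and FANCD2, the ubiquitinated subunit, -0.57 ± 0.10 and -0.16 ± 0.06 (0.0103 and 0.156). Their differential scores lay between -0.43 and -0.37, and none passed (limma, lowest adjusted p = 0.0787). With the plain sum, C19orf40, FANCD2 and SLX4 were above 0 under niraparib (0.02, 0.07 and 0.18) and UBE2T was at -0.17.

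Homologous recombination, which repairs broken forks from the sister chromatid, was the longest list. Of its 28 measured genes, 10 were lower and 1 was higher under niraparib (median -0.13), and 11 were lower and 0 higher in the reference arm (median -0.23). Among all LIG1 partners, 7.56% were lower and 1.11% higher under niraparib, and 5.17% were lower in the reference arm, with a median of -0.03 in each. BRCA2, a central mediator of recombination, had the lowest reference score with LIG1, -1.68, -1.13, -0.75 and -1.16 (mean -1.18 ± 0.38; limma adjusted p = 0.0209), against -0.68, -0.14, 0.29 and 0.21 under niraparib (mean -0.08 ± 0.44; 0.693). Its differential score was 1.10 ± 0.18 (0.0257). Without 2022 replicate 1, in which BRCA2 alone stood apart, the niraparib mean was -0.10 (0.801), the reference mean -1.29 (0.111) and the differential 1.19 (0.131). The pair stood at 3.9%, 4.3%, 5.9% and 5.9% in the niraparib libraries, where its constructs had on average 13.5 to 32.5 reads, at 9.0%, 11.6%, 8.6% and 11.2% in the reference libraries and at 62.8% to 70.01% at T0.

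BARD1 had -0.40 ± 0.41 under niraparib and -0.72 ± 0.16 in the reference arm (limma adjusted p = 0.0183 and 0.0165), and its partner BRCA1 had -0.05 ± 0.16 and -0.44 ± 0.14 (0.692 and 0.0409). Under niraparib BARD1 was at -0.03 and -0.07 in 2023 and at -0.80 and -0.71 in 2022, so that the values of 2022 alone lay far from 0. The LIG1 and BARD1 pair itself changed by -5.49 ± 0.40 from T0 under niraparib, further than the pair with BRCA2 (-4.48 ± 0.54). Its reads per construct are not given here, and the score is limited by depth. RAD54L, a DNA translocase of strand exchange, had -0.30 ± 0.05 and -0.68 ± 0.16 (0.0342 and 0.0254), with -0.73 in the reference arm without 2022 replicate 1 (0.126), and PALB2, which links BRCA1 to BRCA2, had -0.09 ± 0.08 and -0.47 ± 0.19 (0.361 and 0.0463). The RAD54L sgRNA combinations ran from -0.63 to 0.04 under niraparib. The 3 subunits of the MRN end-processing complex were lower in both arms, at -0.43 and -0.43 for MRE11A, -0.56 and -0.37 for RAD50, and -0.58 and -0.34 for NBN.

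AUNIP, a resection factor, was called lower under niraparib, at -0.53, -0.81, -0.68 and -0.70 (mean -0.68 ± 0.12; limma adjusted p = 0.0115) against 0.03, 0.01, -0.13 and -0.11 in the reference arm (mean -0.05 ± 0.08; 0.591). Its differential score of -0.63 ± 0.13 was the lowest of all LIG1 partners and did not pass (0.0580). RBBP8 (CtIP) had -0.54 ± 0.57 and -0.08 ± 0.20 (0.0464 and 0.656), with 2022 replicate 2 at 0.20.

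The starts of BRCA2 and ZAR1L lie 145 bases apart and those of PALB2 and DCTN5 156 bases apart, and all 4 genes are in the library. ZAR1L had -0.47 ± 0.19 under niraparib and -0.51 ± 0.16 in the reference arm with LIG1 (limma adjusted p = 0.0375 and 0.0340), and DCTN5 had -0.01 ± 0.32 and -0.55 ± 0.40 (0.979 and 0.102). Repression of the neighbour by such sgRNAs was not tested.

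**Figure D3:**
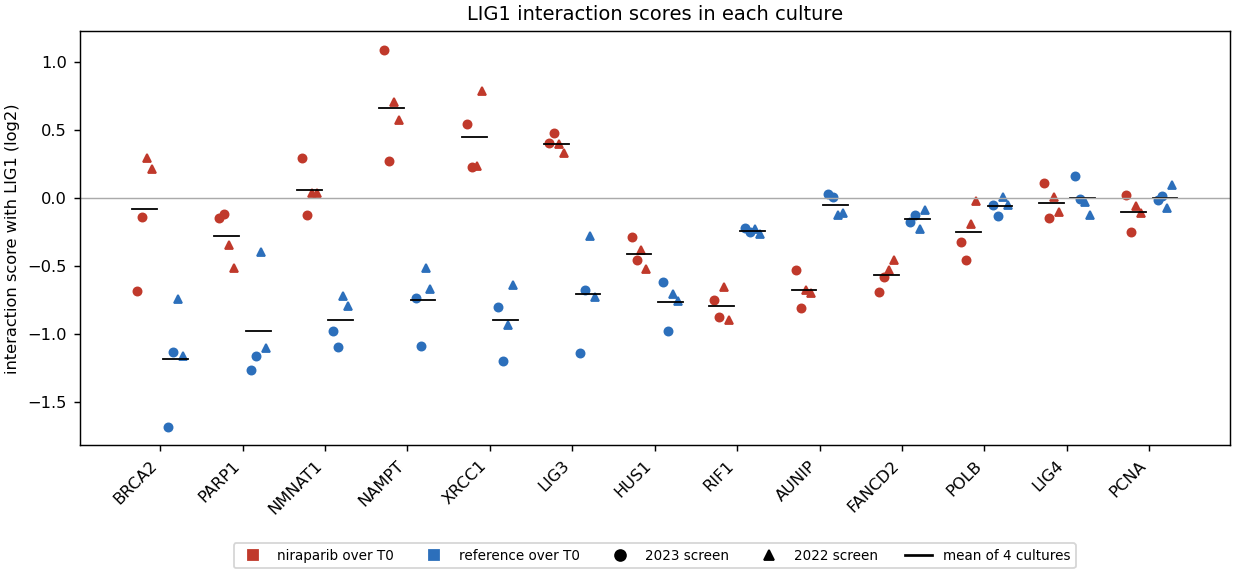
Interaction score with LIG1 (log2) of 13 partners in each of the 4 cultures, niraparib endpoint (red) left of reference endpoint (blue), both over T0; circles are 2023 cultures, triangles 2022 cultures and bars their means. NAMPT, XRCC1 and LIG3 lie above 0 in all niraparib values and below 0 in all reference values, while RIF1, AUNIP and FANCD2 are lower under niraparib.

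HUS1, a subunit of the 9-1-1 ring loaded at single-stranded gaps to activate ATR, had scores with LIG1 of -0.29, -0.46, -0.39 and -0.52 under niraparib and -0.62, -0.98, -0.71 and -0.76 in the reference arm, with all niraparib values above all reference values. The means were -0.41 ± 0.10 and -0.77 ± 0.15 (limma adjusted p = 0.0232 and 0.0197), and the differential score of 0.35 ± 0.12 did not pass (0.127). Without 2022 replicate 1 the means were -0.45 and -0.78 (0.0867 and 0.127) and the differential 0.33 (0.462). RAD1, the second subunit, had -0.29 ± 0.12 and -0.35 ± 0.10 (0.0372 and 0.0437), and the clamp's loader RAD17 had -0.26 ± 0.29 and -0.43 ± 0.14 (0.175 and 0.0458).

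RAD9A, the third subunit of the ring, had 0.04 ± 0.13 under niraparib and -0.20 ± 0.14 in the reference arm (limma adjusted p = 0.778 and 0.15), in cells where RAD9A knockdown alone was already at -1.83 for growth. Under niraparib its sgRNA combinations disagreed, at 0.19 and 0.60 with the first RAD9A sgRNA and -0.52 and -0.11 with the second. ATRIP, which brings ATR to gaps, had -0.60 ± 0.19 and -0.37 ± 0.04 (0.0166 and 0.0316), whereas ATR had 0.22 ± 0.17 and 0.09 ± 0.20 (0.159 and 0.629). The sgRNA combinations under niraparib ran from -0.29 to 0.57 for ATR and from -0.77 to -0.42 for ATRIP. Of 11 measured members of the list, 3 were lower under niraparib (median -0.15) and 4 were lower in the reference arm (median -0.20). For all LIG1 partners the shares were 7.56% and 5.17%, with a median of -0.03 in each arm.

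Lagging-strand maturation is the process in which LIG1 takes the last step. Of 13 measured genes, RFC1 was lower and LIG3 higher under niraparib (median -0.16), and LIG3 and RNASEH2B were lower in the reference arm (median -0.15). Below 0 lay 12 of 13 and 11 of 13, against 61.6% and 65.1% of all LIG1 partners. Among all LIG1 partners, 7.56% were called lower and 1.11% higher under niraparib, and 5.17% were called lower in the reference arm. PCNA, the clamp that LIG1 binds, had -0.10 ± 0.11 under niraparib and 0.00 ± 0.07 in the reference arm (limma adjusted p = 0.403 and 0.987), and PCNA repression alone gave a growth of -0.04, so its 2 sgRNAs had little effect to combine. The nuclease DNA2 had -0.13 ± 0.11 and -0.15 ± 0.09 (0.283 and 0.162).

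RNase H2, which removes ribonucleotides and RNA primers from DNA, had scores below 0 for all 3 subunits in both arms. Of all LIG1 partners, 61.6% lay below 0 under niraparib and 65.1% in the reference arm. RNASEH2B had -0.37 ± 0.21 under niraparib and -0.28 ± 0.06 in the reference arm (limma adjusted p = 0.0763 and 0.044), RNASEH2C -0.22 ± 0.16 and -0.28 ± 0.08 (0.137 and 0.0598), and the catalytic subunit RNASEH2A -0.22 ± 0.04 and -0.17 ± 0.03 (0.0615 and 0.117). Only the reference score of RNASEH2B passed among these 6 values. With the plain sum, RNASEH2C was above 0 under niraparib (0.39), and RNASEH2A and RNASEH2B were at -0.13 and -0.16. RFC1, the large subunit of the PCNA loader, had -0.27 ± 0.05 and -0.17 ± 0.12 (0.0451 and 0.164), and CHTF18, of the alternative loader, had 0.10 ± 0.14 and 0.14 ± 0.09 (0.395 and 0.201).

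The replisome itself gave 0 called partners of 16 in either arm, with medians of 0.00 under niraparib and -0.01 in the reference arm, including WDHD1 (-0.01 and -0.01) and CLSPN (0.00 and -0.12), which couple polymerase and helicase. Mismatch repair likewise gave 0 of 4 in both arms (medians -0.05 and -0.03). Of all LIG1 partners, 7.56% were called lower and 1.11% higher under niraparib, and 5.17% lower in the reference arm. At such shares, 0 calls in lists this short do not set them apart. The end-joining ligase LIG4 had -0.04 ± 0.12 and 0.00 ± 0.12 (limma adjusted p = 0.786 and 0.995), and POLQ, the polymerase of microhomology end joining, -0.07 ± 0.20 and 0.06 ± 0.07 (0.61 and 0.603). KIAA1524 (CIP2A), which tethers broken chromosomes in mitosis, was the called member of 8 end-joining genes under niraparib (-0.31 ± 0.05; limma adjusted p = 0.0296), and XRCC6 (Ku70) the called one in the reference arm. XRCC6 was at -0.95 and -0.75 in 2023 but at 0.15 and 0.02 in 2022 (mean -0.38 ± 0.55; limma adjusted p = 0.0421), so that the values of 2023 alone lay below 0.

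RAD18, the ligase that ubiquitinates PCNA, was lower under niraparib (-0.35 ± 0.14; limma adjusted p = 0.0268) and not in the reference arm (-0.04 ± 0.07; 0.674), with a differential score of -0.31 that did not pass (0.141). WDR48, cofactor of the PCNA deubiquitinase USP1, had -0.14 ± 0.24 and -0.43 ± 0.16 (0.272 and 0.0474).

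**Figure D4:**
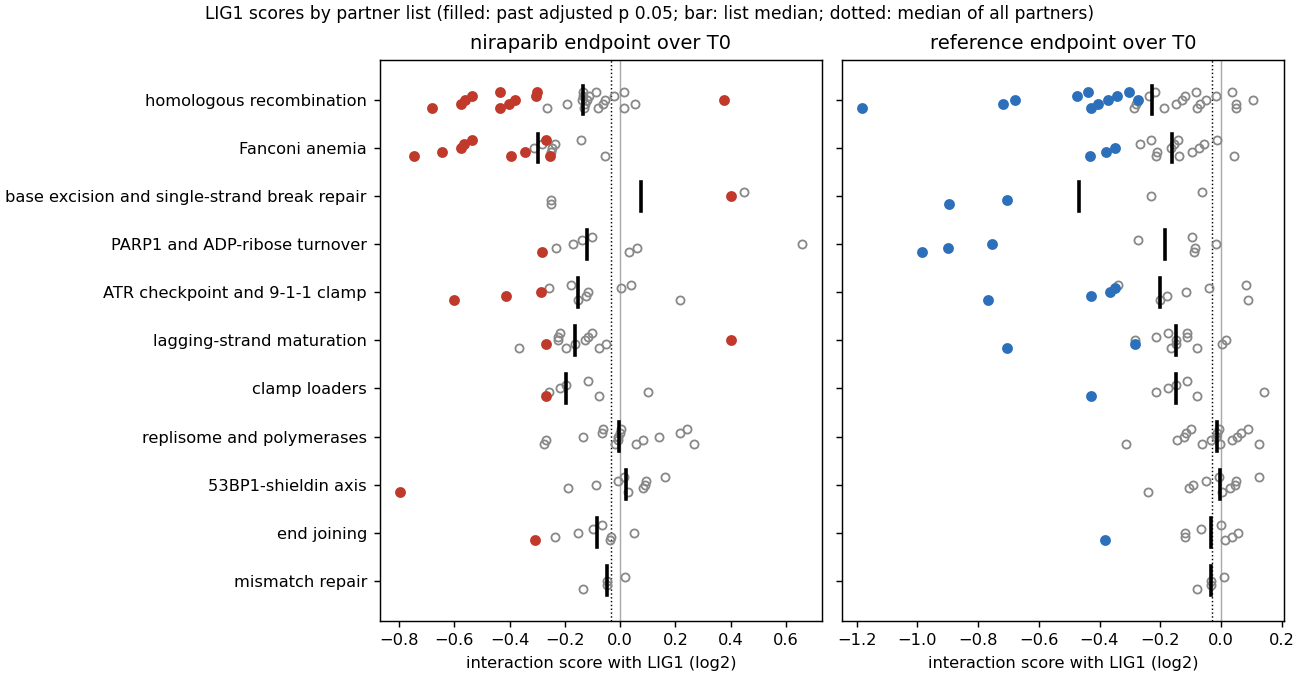
Interaction scores with LIG1 (log2, mean of 4 cultures) of the members of 11 gene lists under niraparib (left) and in the reference arm (right), both over T0; filled points passed adjusted p 0.05, thick bars are list medians and the dotted line is the median of all 542 partners. All 16 Fanconi anemia genes lie below 0 under niraparib, and the base excision list has a median of 0.08 there and -0.47 in the reference arm.

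Higher scores under niraparib were called for LIG3, LRRC45, ZCRB1, PGD and NOL7, among others, between 0.27 and 0.40. LRRC45, a centrosome linker protein, had 0.37 ± 0.11 under niraparib and -0.28 ± 0.14 in the reference arm (limma adjusted p = 0.0220 and 0.106). Its sgRNA combinations disagreed, from -0.11 to 0.85 under niraparib. The LRRC45 start lies 427 bases from that of CENPX (STRA13), a member of the Fanconi anemia list. Repression of CENPX by LRRC45 sgRNAs was not tested. ZCRB1, of the minor spliceosome, had 0.31 ± 0.14 and -0.06 ± 0.15 (0.0402 and 0.733), PGD, of the pentose phosphate pathway, 0.30 ± 0.08 and 0.07 ± 0.11 (0.0436 and 0.598), and NOL7, of ribosome assembly, 0.27 ± 0.13 and 0.06 ± 0.10 (0.0452 and 0.542). In the reference arm, RBM8A (0.23), RUVBL1 (0.21), RCC1 (0.21) and CUL2 (0.19) had the highest scores, and none passed.

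Between the arms, 5 of 542 LIG1 partners (0.923%) had a higher differential score, against 0.105% of all pairs, and 0 had a lower one, against 0.0544%. With no replicate block, 4 LIG1 partners had a lower and 6 a higher differential score, when 397 and 309 of all 147044 pairs did. By limma, 60 lower and 50 higher differential scores had an unadjusted p under 0.05, a threshold for which no share of all pairs is given here. The 5 were NAMPT, XRCC1, LIG3, BRCA2 and NMNAT1, and the signs held in all 4 cultures and without any culture in turn, but no LIG1 partner passed with a culture left out, when 0 to 11 of all gene pairs did. With the plain sum as expectation the 5 were at 2.43, 2.25, 1.58, 2.15 and 1.73 and were called again. That expectation raised 513 of the 542 LIG1 differential scores. It called 151 LIG1 partners and 11461 of all pairs higher, so the repeated calls of these 5 are no separate support. Of the library's genes, 6 had more higher differential calls than LIG1. The lowest differential scores, with AUNIP (-0.63), RIF1 (-0.56), ZNF574 (-0.55) and CAD (-0.51), did not pass (limma adjusted p from 0.0580 to 0.150).

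The same partners can be read from levels without a curve, as the level of the pair in percent of the product of both single levels in the same library. LIG1 with NAMPT stood at 151% ± 14 of the product in the niraparib libraries, 34.6% ± 7.6 in the reference libraries and 43.5% ± 2.8 at T0 (SD, n = 4 libraries each). BRCA2 gave 139% ± 5.8, 40.3% ± 13 and 66.7% ± 3.3, NMNAT1 135% ± 19, 47.7% ± 3.8 and 70.9% ± 3.8, XRCC1 94.7% ± 14, 27.05% ± 4.8 and 43.7% ± 3.6, and LIG3 63.0% ± 7.8, 23.2% ± 3.6 and 34.7% ± 2.9. For these 5 the reference libraries lay below T0 on average and the niraparib libraries above it. Without 2022 replicate 1 the reference value of BRCA2 was 34.2% ± 4.2 (SD, n = 3). PARP1 was at 44.2% ± 3.6 in the niraparib libraries, 44.0% ± 15 in the reference libraries and 74.4% ± 2.6 at T0, and its reference value was 66.3% in 2022 replicate 1 and 36.6% ± 1.8 in the other 3 libraries. RIF1 was at 85.7% ± 9.0, 94.3% ± 4.7 and 103% ± 3.4.

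**Figure D5:**
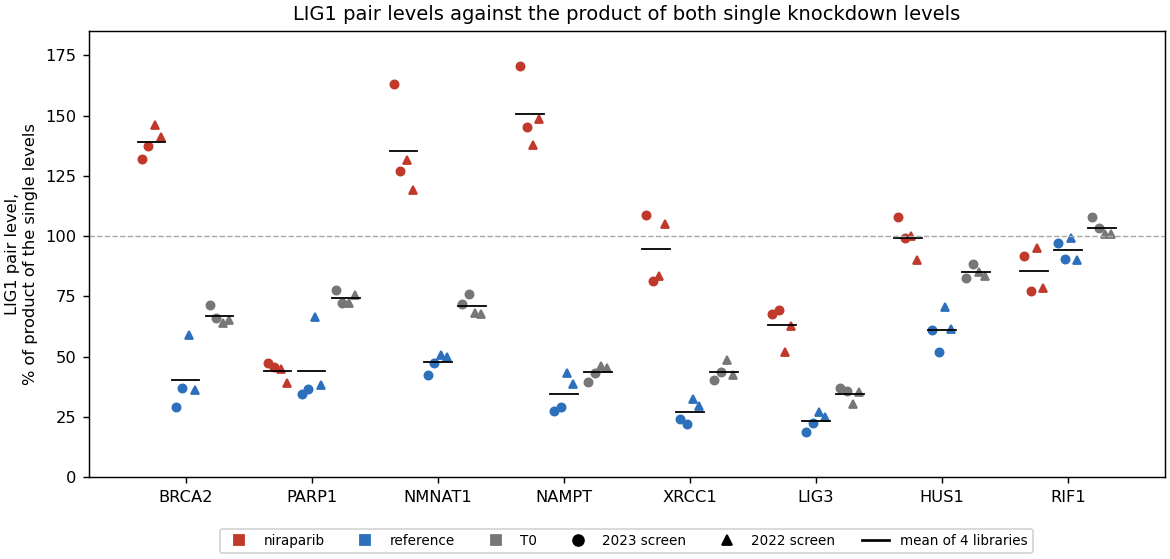
Level of each LIG1 pair as a percentage of the product of both single levels in the same library (dashed line at 100%), for 8 partners in niraparib, reference and T0 libraries; circles are the 2023 screen, triangles the 2022 screen and bars means of 4 libraries. NAMPT, BRCA2 and NMNAT1 pairs lie above 100% under niraparib and below it in the reference arm and at T0, while LIG3 pairs lie below 100% in all 3 arms.

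Genes with a like interaction profile were found by correlating scores across 541 shared partners, as a description over points that share libraries and partner sgRNAs. Under niraparib the nearest to LIG1 were LIG3 (r = 0.571), RNASEH2C (0.528), C4orf27 (0.519), DNPH1 (0.514) and XRCC2 (0.501), over a median gene of 0.107. The least like were TP53BP1 (-0.378), CCAR1 (-0.351) and HNRNPDL (-0.336), and PARP1 stood at -0.332, rank 539. In the reference arm the nearest were PSMC3IP (0.459), XRCC1 (0.433), RAD50 (0.430), KIAA1524 (0.427) and RNASEH2C (0.423), over a median of 0.0586. PARP1 stood at 0.404 there, rank 7, and the least like were HELB (-0.248), E2F7 (-0.196) and SMG5 (-0.188). LIG3 and C4orf27, among the nearest under niraparib, stood at 0.117 and 0.151 in the reference arm, ranks 172 and 122.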

How the data were processed

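The authors deposited read counts per construct for the 12 libraries (unit: counts) and log2 phenotypes per construct, which were recomputed exactly from the deposited counts with 10 added to each and were otherwise not used. The submitters' processing notes name Bowtie2 2.3.4.1 without a role, and other steps are not given in the sources used here. Single values were computed from counts summed over constructs with a non-targeting sgRNA, with library sizes from constructs of 2 non-targeting sgRNAs, by edgeR 4.0.16 quasi-likelihood fits (R 4.3.3) over 543 genes with each culture as a block. Pair scores used log2((endpoint + 1)/(T0 + 1)), a minimum of 30 T0 counts, averaged over libraries, for a construct to enter (49 of 4560 LIG1 constructs fell below), both orders averaged, the residual from a degree 2 curve for each sgRNA, and limma 3.58.1 over 147044 gene pairs with a screen term, both screens weighted equally, and Benjamini-Hochberg adjustment at 0.05. The culture pairs the arms by the labels' protocols. Same-numbered libraries deviated together only weakly (r from 0.0319 to 0.0813 across constructs). Total counts per library were 182.6 to 460.7 megareads.

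LIG1, its partner lists and the tests were chosen with earlier results of these data known. Named partners were, in each of the 3 kinds of score, up to 8 called partners in each direction with 1 sign in all cultures (the 4 most extreme where fewer passed), a list of fixed partners, called list members, up to 4 per list, and the genes most and least like LIG1; DCTN5, ZAR1L, XRCC6 and the pairs named at T0 were added after their values were seen. Some partners that the rule names are not reported here. Alternatives were other scalings, pseudocounts, filters, curves, sgRNAs, positions, screens and left-out cultures. Both procedures were tested on simulated data, the pair test for the reference score alone. The simulated pairs followed the sum of the single changes, with independent noise and no differences between screens or cultures. The pair test recovered nearly all changed pairs, and its false calls fell mainly on pairs with strongly depleted genes and on none with LIG1. Because the real data depart from that setting, this does not give the rate of false calls among the real LIG1 pairs. Replicates are separate cultures by the labels. Because the screen term takes up the difference between screens, p-values measure the spread between cultures within a screen.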

Additional observations from a re-analysis of the deposited data

Results flagged for a closer look

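The niraparib response of LIG1 differed between the screens by -0.21 (2023 minus 2022, log2), given as a description because LIG1 was chosen on these values. In 4 cultures per value, 7 of 121 values tested had a culture far from the other 3. Chance gives this in about 1 in 20 groups, so the number flagged is near what chance gives. The gap to the nearest culture as a share of the whole range was 0.967 for the reference score with RAD9A (-0.27, -0.27, 0.01 and -0.28 in 2023 replicates 1 and 2 and 2022 replicates 1 and 2), where 2022 replicate 1 stood apart. It was 0.870 for the reference score with BRCA1 (-0.35, -0.65, -0.38 and -0.37) and 0.868 for that with PARG (-0.08, 0.13, -0.05 and -0.06), where 2023 replicate 2 stood apart, and 0.884 for the niraparib score with BRCA1 (-0.29, 0.02, 0.01 and 0.04), where 2023 replicate 1 did. For differential scores it was 0.886 with BRCA2 (1.00, 1.00, 1.04 and 1.38), 0.848 with AUNIP (-0.56, -0.82, -0.55 and -0.59) and 0.832 with RAD9A (0.39, 0.21, 0.17 and 0.20). No cause was tested.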

How the results depend on the processing

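Relative to all genes, scaling LIG1 by TMM or by the median of ratios (DESeq2) in place of non-targeting constructs moved growth to -0.16 and -0.22 and the total change to -0.82 and -0.82, since most genes of the library were depleted. The first and second sgRNA alone gave growth of -0.66 and -0.57 and totals of -1.38 and -1.14, and scaling by the constants that link the deposited phenotypes to the counts, read here as doublings although no source used here names them, gave a response of -1.24. The screen difference in response, -0.21, was -0.23 to -0.20 without 1 of the 2023 replicates, -0.19 and -0.24 with the first and second sgRNA, -0.24 and -0.18 with the first and second position and -0.49 with those constants. The number of called reference partners, 28, was 0 to 15 with a culture left out, 0 in 2023 alone, 0 in 2022 alone, 17 with the second sgRNA, 49 with a pseudocount of 10 and 235 with the sum of single phenotypes as expectation. The 47 called under niraparib were 1 to 31 with a culture left out, 2 and 3 in 2023 and 2022 alone, 83 with a pseudocount of 10 and 324 with the sum. The 5 differential calls were 0 to 0 with a culture left out, 0 in each screen alone, 10 with no replicate block (4 lower and 6 higher), 3 with the second sgRNA, 23 with a pseudocount of 10, 3 with a straight line, 9 with those constants and 154 with the sum. All 28, 47 and 5 called pairs kept their sign with each culture left out. The sum turned the sign of 254, 226 and 172 of 542 niraparib, reference and differential scores, including 23 of the 47 niraparib calls and 0 of the 28 and 5 others. The sign turned for the reference score with XRCC6 in 2022 alone (0.082), and with the sum, among other named partners, in the reference arm, for CLSPN (0.36), DNA2 (0.20), RAD9A (0.24) and WDHD1 (0.27), under niraparib for BARD1 (0.99), BRCA1 (1.05), BRCA2 (1.21), C19orf40 (0.0152), C4orf27 (0.36), DNA2 (0.56), FANCD2 (0.0691), HUS1 (0.21), PALB2 (0.85), POLB (0.53), RAD17 (0.41), RAD54L (0.49), RBBP8 (0.56), RFC1 (0.50), RNASEH2C (0.39), SLX4 (0.18), WDHD1 (1.14) and WDR48 (0.45), and in the differential for CHTF18 (0.30), POLB (0.60) and RFC1 (0.51). Depth limits the most depleted pairs most, such as LIG1 with BRCA2 at 13.5 reads per construct in its lowest library. The pair with BARD1 was depleted further from T0 under niraparib than that with BRCA2 (-5.49 against -4.48, log2).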
